A study of Mus musculus with 2 samples.

Results

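Natural killer-like cells of C57BL/6 mouse bone marrow, captured in droplets and sequenced from the 3′ ends of their transcripts, were selected on measured receptor transcripts. They are 271 of the 23776 barcodes that passed the filters and of the 29327 barcodes in all. Kept barcodes had 1000 or more UMIs (molecular tags, 1 for each transcript caught), 500 or more genes and mitochondrial UMIs of no more than 10%. It then needed at least 2 UMIs of Ncr1, Klrb1c and Klrd1 together and at least 1 UMI of Il2rb. It also had to hold under 2 UMIs of Cd3d, Cd3e and Cd3g, under 2 UMIs of Il1rl1 and Il2ra, Elane and Prtn3 under 20 per 10000 UMIs, and under 2 UMIs of Siglech. The Nat10 cKO library gave 168 such cells and the WT library 103. Both libraries were made from marrow cells left after antibody depletion of lineage-positive cells, and both come from the C57BL/6 strain. The cKO mice carry a conditional knockout of Nat10, whose enzyme acetylates cytidine in RNA, and the WT mice do not. The labels give neither the driver of the deletion, nor the deleted part of the gene, nor the age of the mice. The series text names 5 mice, WT or cKO, but no label ties a cell to a mouse. Each genotype has 1 library, so no difference between genotypes could be tested, and every interval below is a 95% interval that covers counting error only.

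Natural killer cells are innate lymphocytes that kill stressed or infected cells and secrete interferon-gamma without a rearranged antigen receptor. In mouse marrow they arise from lymphoid progenitors under interleukin-15, and their maturation is commonly followed by loss of Cd27 and gain of Itgam (CD11b) and Klrg1. Eomes and Tbx21 (T-bet) are the T-box factors of the lineage. Type 1 innate lymphoid cells share Ncr1, Klrb1c and Tbx21 with them, but are known for little Eomes and for Cxcr6, Itga1 and Il7r. A lineage depletion cocktail removes mature blood cells by their surface markers, and what is left of a lymphoid class depends on the antibodies in it, which the labels do not list.

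The promoters of 3 genes that mark these cells are shown to set the sequence beside the values that follow. Ncr1 encodes the activating receptor NKp46, Klrb1c the antigen used to stain natural killer cells in this strain, and Nkg7 a protein of cytotoxic granules. RefSeq windows from 250 bases before to 50 bases after the start were available for these 3 of the 5 marker genes. They lie, on build GRCm38.p6, at chr7:4337465-4337764 on the plus strand for Ncr1, chr6:128788592-128788891 on the minus strand for Klrb1c and chr7:43436888-43437187 on the plus strand for Nkg7. Capitals mark TGTGGT, the core bound by RUNX factors, or its reverse complement ACCACA.
Ncr1: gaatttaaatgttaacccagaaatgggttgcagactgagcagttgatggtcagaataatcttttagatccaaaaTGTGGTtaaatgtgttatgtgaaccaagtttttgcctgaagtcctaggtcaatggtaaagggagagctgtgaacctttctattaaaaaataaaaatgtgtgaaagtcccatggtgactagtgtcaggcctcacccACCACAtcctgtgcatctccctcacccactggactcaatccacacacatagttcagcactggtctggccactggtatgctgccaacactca
Klrb1c: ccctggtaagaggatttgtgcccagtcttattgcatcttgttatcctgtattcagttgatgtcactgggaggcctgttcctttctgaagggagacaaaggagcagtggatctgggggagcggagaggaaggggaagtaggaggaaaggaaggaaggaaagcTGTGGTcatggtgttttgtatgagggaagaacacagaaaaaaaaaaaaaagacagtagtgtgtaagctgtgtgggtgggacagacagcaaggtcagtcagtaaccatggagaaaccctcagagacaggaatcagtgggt
Nkg7: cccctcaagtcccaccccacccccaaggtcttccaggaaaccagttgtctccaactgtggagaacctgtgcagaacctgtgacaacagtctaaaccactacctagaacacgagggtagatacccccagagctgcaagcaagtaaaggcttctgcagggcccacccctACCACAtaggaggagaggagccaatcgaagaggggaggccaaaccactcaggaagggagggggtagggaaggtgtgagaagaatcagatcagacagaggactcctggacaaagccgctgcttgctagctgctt
The motif occurred 2 times in the Ncr1 window and 1 time in each of the others. On either strand it was in 16.8% of the 32851 windows in the table, which can hold more than 1 for a gene. With 1 window per gene, it was in 7 of the 11 found for the 15 genes that lead these cells over all other barcodes. These 15 include genes of the rule and related receptor genes, so the shares are not alike and were not compared. A match describes the letters in the window and does not show that a factor binds there.

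Some of the barcodes held RNA of a second cell, and this touches every comparison below. The members were small for this tissue, with a median of 4857 UMIs and 2351 genes in the cKO library and 6546 UMIs and 2730 genes in the WT library, against medians of 21119 and 18600 UMIs over the kept barcodes. Yet 14 cKO and 12 WT members exceeded 10000 UMIs, and they held 38.7% of the cKO and 27.3% of the WT members' UMIs. Of these large barcodes, 11 cKO and 4 WT carried at least 10 UMIs per 10000 of erythroid, neutrophil, plasma cell, basophil, stem cell, dendritic or Mpo transcripts. A single cKO barcode held 3247 UMIs of S100a8, S100a9, Ngp and Camp, and another 10181 UMIs of Jchain, Iglc1 and Ighm. Scrublet called 9 cKO and 6 WT members doublets. Values are therefore given for all members and again for the 154 cKO and 91 WT members of at most 10000 UMIs, a limit chosen after the data were seen. This smaller set is not free of such transcripts: 35 of its cKO and 13 of its WT members met the same limit, mostly on erythroid transcripts (27 and 10), with up to 59 basophil and 37 dendritic UMIs in a cKO barcode. The 2 libraries shared 67 barcode sequences, and no member of one had the barcode of a member of the other.

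**Figure D1:**
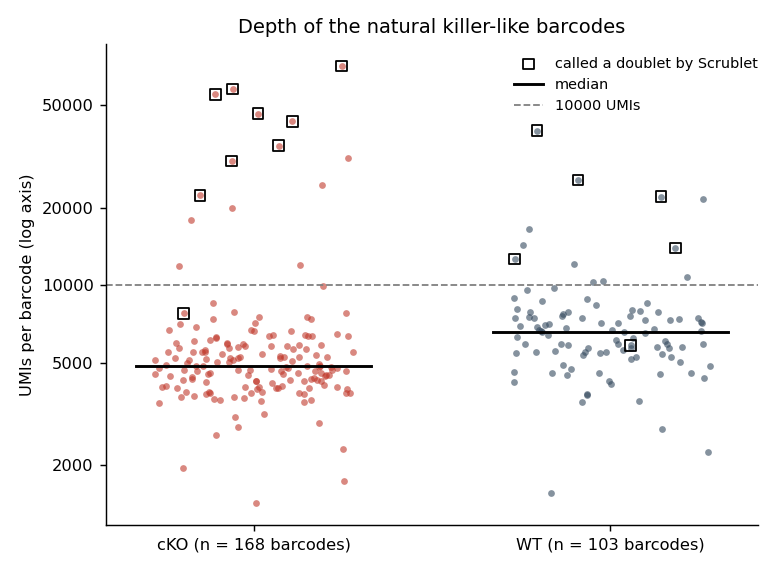
UMIs per natural killer-like barcode on a log axis, 168 in the cKO and 103 in the WT library, with the median of each as a line. Squares mark Scrublet doublets, and the dashed line at 10000 UMIs leaves 14 cKO and 12 WT barcodes above it.

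The defining markers were present in most members. Ncr1, read in the rule, had a UMI in 152 of 168 cKO cells and 91 of 103 WT cells, Klrb1c in 149 and 89, and Klrd1, the partner chain of the NKG2 receptors, in 101 and 73. Nkg7, which the rule did not read, had a UMI in 149 cKO cells (88.7%) and 96 WT cells (93.2%). After every barcode was thinned to 2000 UMIs, Nkg7 was found in 67.3% of cKO and 68.6% of WT members. It was in 3.75% and 4.13% of erythroid-gated barcodes, a background share. Those barcodes had medians of 40072 cKO and 40257 WT UMIs before thinning. Thinning took more from them than from the members, so their share may understate free RNA in the members. Klrk1, the activating receptor NKG2D, was found after thinning in 75.2% of cKO and 72.5% of WT members, and the chemokine gene Xcl1 in 67.3% and 60.8%. In erythroid-gated barcodes Klrk1 stood at 0.198% and 0.211% and Xcl1 at 0.0741% and 0.181%.

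Some markers of mature natural killer cells were found in few members and others in many. Eomes had a UMI in 17 of 168 cKO cells (10.1%) and 21 of 103 WT cells (20.4%), and Gzma, the granule protease granzyme A, in 15 and 17. Gzmb was found in 11 cKO and 6 WT cells, Itgam in 3 and 7, Klrg1 in 2 and 1, and S1pr5, a receptor that guides exit from marrow, in 0 and 5. Other genes listed with the mature stage were found in more cells. Spn was in 77 cKO and 72 WT cells, S100a4 in 86 and 59, and Lgals1 in 71 and 69. Ly6c2 was in 62 and 47, Zeb2 in 62 and 50, Klf2 in 59 and 61, and Irf8 in 48 and 42. Of the genes that the background above places with type 1 innate lymphoid cells, Il7r, the interleukin-7 receptor, had a UMI in 122 cKO cells (72.6%) and 56 WT cells (54.4%), Cxcr6 in 64 (38.1%) and 31 (30.1%), and Itga1 in 38 (22.6%) and 24 (23.3%). Zfp683, a factor on the same list, was in 4 cKO and 3 WT cells. Rora, a nuclear receptor on the type 2 list, was in 135 cKO cells (80.4%) and 83 WT cells (80.6%). The rule itself required the receptors and Il2rb, so these do not bear on the label independently. It did not read Nkg7, Klrk1 and Xcl1, nor the genes counted above in this paragraph. Nkg7 was also in 98.6% of cKO and 96.5% of WT barcodes that passed the other steps with 3 or more Cd3 UMIs. Klrk1 was in 84.5% and 88.0% of them. Eomes, Gzma, Gzmb, Itgam, Klrg1 and S1pr5 had no UMI in most members. S100a4 had a UMI in most members of both libraries, and Spn, Lgals1 and Klf2 in most WT members. The cells are called natural killer-like by their rule.

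Part of the marker lists of other lymphoid cells was near 0 and part was not. Of the 13 genes on the T cell list, Cd5, Cd6, Cd8a and Cd8b1 had no UMI in either library, which allows up to 3 UMIs of each, and Trac had 1 cKO and 3 WT UMIs. Transcripts of the T cell receptor beta constant gene Trbc1 were nevertheless in 117 cKO cells (69.6%) and 70 WT cells (68.0%). Trbc2 had 193 cKO and 111 WT UMIs and the costimulatory receptor Cd28 412 and 621, and the T cell list summed to 749.8 CPM (UMIs scaled to a fixed library total of 1e6) in cKO and 1361 CPM in WT members. The delta constant gene Trdc had 1 UMI in the cKO and 30 UMIs in 15 cells of the WT library. Il5, Il13 and Ptgdr2 of type 2 and Il22 and Il17a of type 3 innate lymphoid cells had no UMI in either library. Besides Rora, the type 2 list held Gata3 with 66 cKO and 78 WT UMIs, Icos with 102 and 54, and Arg1 with 95 and 52, and it summed to 884 and 958 CPM. The type 3 list summed to 25.02 and 6.50 CPM and the B cell list to 15.3 and 9.10 CPM. Granulocyte genes summed to 3467 CPM in cKO and 1007 CPM in WT members, and to 434 and 640 CPM among those of at most 10000 UMIs. The rule capped Elane and Prtn3, which held 81.6 and 130 of those 434 CPM and 120 and 147 of those 640 CPM. It likewise capped Cd3d, Cd3e and Cd3g of the T cell list and Il1rl1 and Il2ra of the type 2 list. Erythroid genes summed to 2337 and 1539 CPM over all members and to 1536 and 1470 CPM among those of at most 10000 UMIs. The part of these transcripts in the gene ratios below was not tested beyond leaving out the large barcodes.

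The edges of the rule held unequal numbers of barcodes. Exactly 2 receptor UMIs, just inside, were held by 11 cKO and 9 WT barcodes, of which 9 and 6 had Nkg7. Exactly 1 receptor UMI with all other steps passed, just outside, was held by 14 cKO and 10 WT barcodes, of which 6 and 5 had Nkg7. At the Cd3 step, 159 cKO and 93 WT members had 0 UMIs of Cd3d, Cd3e and Cd3g and 9 and 10 had 1. Just outside it, 8 cKO and 12 WT barcodes had exactly 2. At the Il2rb step, 17 cKO and 5 WT members had exactly 1 UMI, of which 12 and 3 had Nkg7. Just outside it, 24 cKO and 38 WT barcodes had 0 with all other steps passed, of which 10 and 9 had Nkg7, and their median depths were 18890 and 17483.5 UMIs.

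The share of natural killer-like cells was higher in the cKO library, and the size of that difference turned on the Cd3 step. They made up 1.49% of cKO barcodes (168 of 11239; exact binomial interval 1.28 to 1.74%) and 0.822% of WT barcodes (103 of 12537; 0.671 to 0.996%). The ratio was 1.82 (exact conditional binomial interval 1.42 to 2.35). Barcodes that met every other step but held at least 2 Cd3 UMIs went the other way, at 0.703% of cKO (79 barcodes) and 1.23% of WT barcodes (154), a ratio of 0.572 (0.431 to 0.755). With the Cd3 step left out, an alternative chosen after the data were seen, 247 cKO and 257 WT barcodes passed, 2.20% and 2.05%, and the ratio was 1.07 (0.897 to 1.28). The ratio was also smaller on thinned counts. When each barcode was first thinned to 2000 UMIs and then put through the rule, 101 of 9914 cKO and 77 of 10083 WT barcodes passed, and the interval of the ratio, 1.33 (0.982 to 1.82), included 1.

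**Figure D2:**
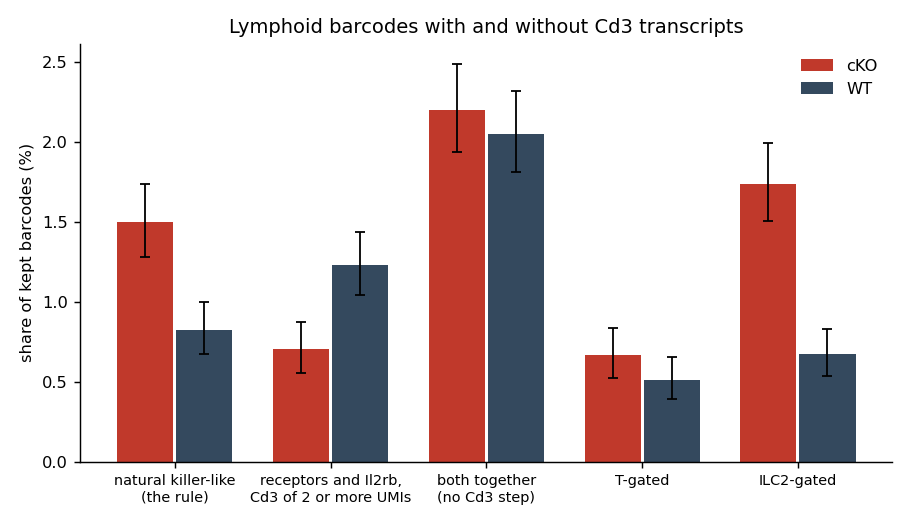
Share of kept barcodes in percent for 5 sets of lymphoid barcodes, cKO left of WT, with exact binomial 95% intervals as error bars. The natural killer-like share is 1.49% in cKO and 0.822% in WT, the set with Cd3 transcripts is 0.703% and 1.23%, and both together are 2.20% and 2.05%.

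Other lymphoid barcodes did not move alike. T-gated barcodes, with at least 2 Cd3 UMIs and under 2 receptor UMIs, made up 0.667% of cKO and 0.510% of WT barcodes, a ratio of 1.31 (0.924 to 1.85). ILC2-gated barcodes carry at least 2 UMIs of Il1rl1 and Il2ra together, with Gata3 and Rora, and under 2 receptor and under 2 Cd3 UMIs. They made up 1.74% of cKO and 0.670% of WT barcodes, a ratio of 2.59 (2.0 to 3.39).

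The barcodes with the receptors and Cd3 were unlike the natural killer-like cells in genes that neither rule read. Shares here are over barcodes thinned to 2000 UMIs, cKO before WT. Rora was found in 63.0% and 54.9% of natural killer-like cells and in 10.1% and 8.44% of the receptor and Cd3 barcodes. Tmem176b, a membrane gene listed with type 1 innate lymphoid cells, was found in 40.6% and 25.5% of the natural killer-like cells and in 2.53% and 1.30% of the others. Cxcr6 was found in 20% and 15.7%, against 1.27% and 1.30%. Eomes ran the opposite way, at 2.42% and 9.80% of natural killer-like cells and 21.5% and 20.1% of the receptor and Cd3 barcodes. Ccl5, a chemokine of cytotoxic lymphocytes, was found in 73.3% and 73.5% of the natural killer-like cells and in 96.2% and 96.8% of the others. Trac was at 0 in thinned natural killer-like cells of both libraries and in 20.3% and 17.5% of the receptor and Cd3 barcodes. The sets were split on Cd3 genes, which stand on the T cell list with Trac, so Trac is no independent contrast. The median depths of the 2 sets were 4857 and 5554 UMIs in the cKO library and 6546 and 6709 in the WT library.

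Members without a Cd3 UMI held Eomes less often, and Il7r more often, than barcodes in each class with Cd3 UMIs. Eomes had a UMI in 13 of 159 cKO and 16 of 93 WT members at 0 Cd3 UMIs, in 4 of 9 and 5 of 10 at 1, in 3 of 8 and 8 of 12 barcodes at 2, and in 25 of 71 and 77 of 142 at 3 or more. Il7r had a UMI in 117 of 159 cKO and 55 of 93 WT members at 0, in 5 of 9 and 1 of 10 at 1, in 2 of 8 and 2 of 12 barcodes at 2, and in 24 of 71 and 37 of 142 at 3 or more. Among the classes with Cd3 UMIs neither gene had a steady order, and those at 1 and 2 UMIs hold 8 to 12 barcodes. These cells share 2 libraries, and the counts are given as a description.

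ILC2-gated barcodes held Il7r more often than the natural killer-like cells, and Klrk1 and Tbx21 rarely or not at all. Il7r was found after thinning in 88.5% of cKO and 70.7% of WT ILC2-gated barcodes, against 53.9% and 33.3% of natural killer-like cells. Their gate reads Rora and Gata3, which were in 92.7% and 95.1% and in 78.6% and 79.3% of them. Gata3 was in 13.9% and 21.6% of natural killer-like cells. In ILC2-gated barcodes Klrk1 stood at 1.04% and 1.22% and Tbx21 at 0 in both libraries. Cd28 was in 44.8% of cKO and 61.8% of WT natural killer-like cells, in 32.0% and 50% of T-gated barcodes and in 0.521% and 1.22% of ILC2-gated ones.

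**Figure D3:**
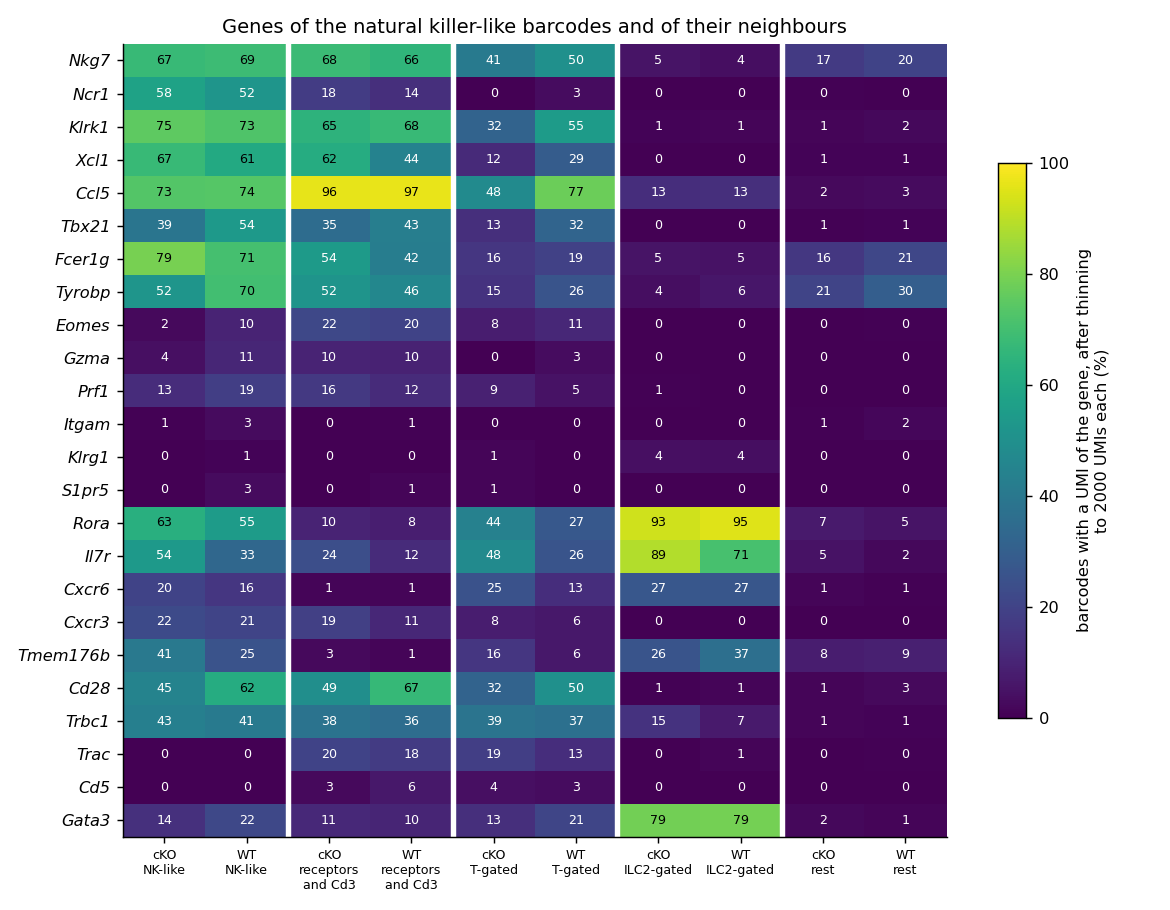
Percent of barcodes with a UMI of each gene after thinning to 2000 UMIs, for natural killer-like cells, barcodes with the receptors and Cd3, T-gated, ILC2-gated and all remaining kept barcodes, cKO left of WT in each pair. Rora, Il7r, Cxcr6 and Tmem176b are higher in natural killer-like cells than in barcodes with receptors and Cd3, and Eomes, Ccl5 and Trac lower.

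The genes with the largest CPM in these cells relative to the rest of the kept barcodes were receptors and effector genes. As the rule chose the cells by such genes, the folds only describe them. Klra8, a Ly49 receptor, came first and had 0 UMIs in the rest of the cKO barcodes. Klrb1b, an inhibitory receptor of the same complex as Klrb1c, stood at 165 CPM in cKO and 168 CPM in WT members, 514 and 860.4 times the level of the other barcodes. Xcl1 stood at 589 and 824 CPM, 239.8 and 303 times that level. Perforin (Prf1), at 75.1 and 114 CPM, was 192 and 195 times higher than in the rest, and interferon-gamma (Ifng), at 92.8 and 151 CPM, 196 and 182 times. Also among the 15 leading genes were Gzma, Klri2, Klrb1a, Krt83 and Apol7b.

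Among members of at most 10000 UMIs, Eomes and Cxcr6 were not found in the same cell. In this set 13 cKO and 15 WT cells had an Eomes UMI, and Cxcr6 was in 0 of 13 and 0 of 15 of them. It was in 59 of 141 cKO (41.8%) and 29 of 76 WT cells (38.2%) without one. Il7r was in 4 of 13 cKO and 4 of 15 WT cells with Eomes, and in 108 of 141 (76.6%) and 47 of 76 (61.8%) without it. Gzma was in 6 of 13 cKO and 5 of 15 WT cells with Eomes, and in 6 of 141 and 10 of 76 without it. The median depths of cells with and without Eomes were 5419 and 4700 UMIs in the cKO library and 6606 and 5986 UMIs in the WT library.

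Granzyme A marked a like minority. Of the 12 cKO and 15 WT members with a Gzma UMI, Prf1 was in 8 and 11, Zeb2, a factor of terminal maturation, in 10 and 10, and Tmem176b in 0 and 2. Of the 142 cKO and 76 WT members without one, Prf1 was in 39 and 23, Zeb2 in 39 and 30, and Tmem176b in 93 and 44. In the WT library Klra8 was in 6 of the 15 cells with Gzma and 2 of the 76 without, and in the cKO library in 2 of 12 and 2 of 142. These pairings rest on 12 cKO and 15 WT cells and were described after the data were seen.

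**Figure D4:**
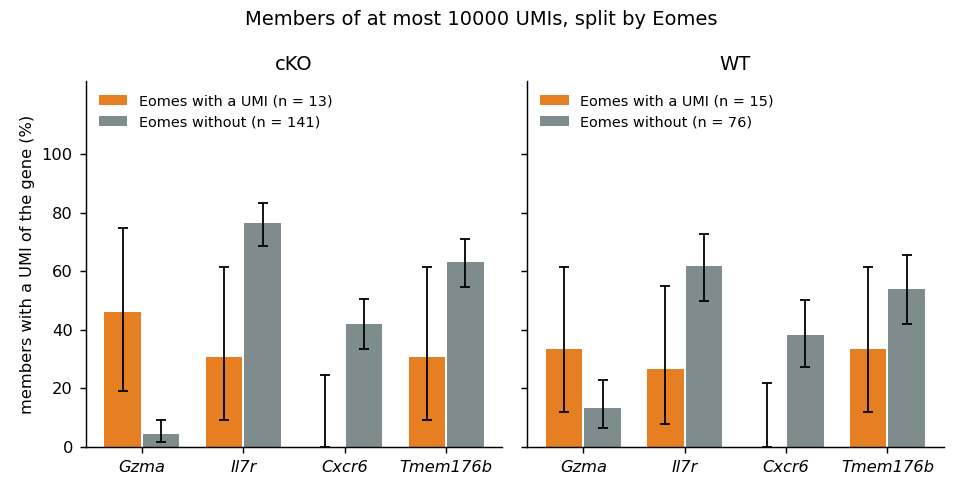
Percent of members of at most 10000 UMIs with a UMI of Gzma, Il7r, Cxcr6 or Tmem176b, split by whether Eomes had a UMI, in the cKO library (left) and the WT library (right); error bars are exact binomial 95% intervals. Cxcr6 is at 0 in all 13 cKO and 15 WT cells with Eomes and at 41.8% and 38.2% without.

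Gene levels in cKO over WT cells were compared on UMIs summed over the members, 1238919 in the cKO and 769316 in the WT library, scaled to CPM. Of 6355 genes with at least 50 UMIs together, 291 were at least 2-fold higher in cKO cells (4.58%) and 94 at least 2-fold lower (1.48%). Among members of at most 10000 UMIs, 4736 genes reached 50 UMIs, with 73 higher (1.54%) and 50 lower (1.06%). The median log2 ratio over all measured genes was 0.01 and 0.00 in these sets. Transcripts of 1 barcode stood at the upper end of the first ranking. Camp, S100a9 and Ngp, neutrophil granule and calgranulin genes, had 446, 1373 and 450 UMIs in cKO cells and 0, 4 and 1 in WT cells, and 1 cKO barcode held 99.3%, 99.2% and 99.8% of the cKO UMIs. For Ltf, Lcn2 and S100a8, next in the ranking, 1 barcode held 100%, 97.5% and 98.8%. Hdc, Mecom, Ermap and Ank1, genes of basophils, stem cells and erythroid cells, completed the 10 highest. At the low end over all members stood Crtam, Klra8, Sox5, Nos1ap, Nr4a1, Tmem163, Klra13-ps, Gzma, Atf3 and Chd7. Sox5 had a log2 ratio of −2.94 with 64.7% of its WT UMIs in 1 barcode, and −0.64 with Scrublet doublets removed.

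The measured receptors of the Ly49 family were lower in cKO cells and rested on few cells. These receptors read class I molecules and are switched on in varying subsets of natural killer cells. Of 12 genes on the list, 3 reached 50 UMIs, and all 3 were over 2-fold lower, where 1.48% of all genes were, or 1.06% without the large barcodes. Klra3, with 28 cKO and 20 WT UMIs, stood at −0.21 over all members and 0.64 without the large barcodes. Klra8, the activating receptor Ly49H, had 14 UMIs in 5 cKO cells and 88 UMIs in 9 WT cells, a log2 ratio of −3.30 (−4.27 to −2.52). A single barcode held 50% of the cKO and another 38.6% of the WT UMIs. Klra7 stood at 19.4 and 59.8 CPM (log2 ratio −1.61, −2.40 to −0.88) and the pseudogene Klra13-ps at 42.0 and 133.9 CPM (−1.67, −2.18 to −1.18). Without the large barcodes the log2 ratios were −3.30, −1.37 and −1.86. The Ly49 genes are near-identical copies, so how reads were split among them is uncertain.

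Among the other receptors, Crtam stood apart. Crtam, an adhesion receptor of activated natural killer and T cells, had 10 UMIs in 7 cKO cells and 92 UMIs in 23 WT cells, 8.07 and 119.6 CPM. Its log2 ratio was −3.83 (−5.00 to −2.95) and −3.79 among members of at most 10000 UMIs, and 28.3% of the WT UMIs came from 1 barcode. It was the lowest of the 3928 ranked genes over all members. After thinning Crtam was in 1.21% of cKO and 12.7% of WT members, and in 21.5% and 19.5% of the receptor and Cd3 barcodes of the same libraries. Of 16 measured genes on this list 12 were lower and 4 higher in cKO cells, where 49.1% and 50.9% of all genes were, with a median log2 ratio of −0.33. Without the large barcodes 9 of 15 were lower, where 49.8% of all genes were and 50.2% were higher, and the median was −0.08. Klrk1 stood at 708 and 723 CPM (log2 ratio −0.03, −0.18 to 0.13; 0.27, 0.10 to 0.43, without the large barcodes). Klrc1, the inhibitory receptor NKG2A, was at 196 and 354 CPM (−0.85, −1.11 to −0.60; −0.44 without the large barcodes). Cd160, Cd226 and Klrb1f had positive ratios once the large barcodes were left out, 0.60 (0.18 to 1.05), 0.34 (0.20 to 0.48) and 0.61 (0.20 to 1.04).

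Transcription factors were mostly lower in cKO cells. Of 16 measured factors 15 were lower and 1 higher, where 49.1% and 50.9% of all genes were. Their median log2 ratio was −0.60, and 13 had an interval below 0, against 16.2% of all genes. Among members of at most 10000 UMIs 10 of 15 were lower, where 49.8% of all genes were. The median of the 15 was −0.31 and 8 had an interval below 0, against 11.2% of all genes. Klf2, which holds lymphocytes in quiescence and circulation, stood at 79.1 CPM in cKO and 187 CPM in WT cells (log2 ratio −1.24, −1.63 to −0.86), and at −0.84 without the large barcodes. Tcf7, of early innate lymphoid development, stood at 88.0 and 195 CPM (−1.15, −1.52 to −0.78; −0.69 without them). Tbx21 stood at 220.4 and 335 CPM (−0.61, −0.86 to −0.35; −0.31 without them) and was in 38.8% of cKO and 53.9% of WT members after thinning. Eomes had 29 UMIs in cKO and 40 UMIs in WT cells, and its log2 ratio of −1.14 (−1.89 to −0.43) was −0.26 (−1.14 to 0.64) without the large barcodes, where it fell under 50 UMIs. Id2, the factor that all innate lymphoid cells need, was the exception over all members, at 477 and 426 CPM and a log2 ratio of 0.16. Without the large barcodes Id2 stood at 0.50 (0.29 to 0.72). There Nfil3, Irf2, Ikzf3 and Ikzf2 were also higher, at 0.37, 0.18, 0.09 and 0.07, with intervals that included 0.

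Gzma had 124 UMIs in 15 cKO cells and 233 UMIs in 17 WT cells, a log2 ratio of −1.59 (−1.92 to −1.28), and −0.90 (−1.28 to −0.53) without the large barcodes. A single barcode held 37.1% of the cKO UMIs and another 33.5% of the WT UMIs. Of 14 measured granule genes 12 were lower (median log2 ratio −0.28), while 7 of 12 were lower and the median was −0.03 among members of at most 10000 UMIs. Of all genes 49.1% and 49.8% were lower, so the second count is near that of all genes. Nkg7 went to −0.04 (−0.23 to 0.15) in the second set and Prf1 to −0.30 (−0.76 to 0.16). Among the secreted factors, Ifng stood at 92.8 and 151 CPM (−0.70, −1.08 to −0.32; −0.33, −0.74 to 0.08, without the large barcodes) and was in 15.8% of cKO and 32.4% of WT members after thinning; 1 cKO barcode held 31.3% of its cKO UMIs. Ltb, the lymphotoxin beta chain, was higher in cKO cells in both sets, at 0.45 (0.23 to 0.67) and 0.82 (0.59 to 1.06). Ccl5 stood at −0.31 and −0.08. Of 8 measured secreted factors 6 were lower, median −0.20, and of 7 without the large barcodes 5, median −0.13.

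Of 16 measured adaptors and kinases 14 were lower (median log2 ratio −0.37), and 9 of 14 with a median of −0.11 without the large barcodes, where 49.1% and 49.8% of all genes were lower. Fyn, a kinase at the base of receptor signalling, stood at 289.8 CPM in cKO and 681 CPM in WT cells, a log2 ratio of −1.23 (−1.43 to −1.04) and −0.91 (−1.12 to −0.69) without the large barcodes. Cd247, the zeta chain, stood at 68.6 and 162 CPM (−1.24, −1.66 to −0.83; −1.07, −1.53 to −0.63, without them). Fcer1g, the other signalling chain used by Ncr1, ran the other way at 634 and 586 CPM, 0.11 and 0.41 (0.23 to 0.60). The receptors for interleukins and interferons had a median of −0.23 over 13 genes, 11 of them lower, which became 0.12 with 5 lower without the large barcodes. These counts and medians include Il2rb, which the rule required in every member and which was lower in both sets (−0.50 and −0.17). In that list Il18rap, the second chain of the interleukin-18 receptor, stayed lower at −0.80 and −0.35 (−0.55 to −0.14).

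Genes of the mature stage were lower in cKO cells in 6 of 7 measured cases. Of all genes 49.1% were lower, or 49.8% without the large barcodes. The mature-stage median log2 ratio was −0.71 in all members and −0.71 in members of at most 10000 UMIs. Ly6c2 was the exception, at 0.41 (0.09 to 0.75) and 0.15 (−0.22 to 0.53). Zeb2, Klf2 and Irf8 are also among the factors above. Zeb2 stood at −0.38 and −1.03 (−1.44 to −0.63) in these sets and Lgals1 at −0.66 and −0.71 (−1.05 to −0.37). The other 7 of the 14 genes on the list had under 50 UMIs and ran both ways, with S1pr5 at 0 cKO and 5 WT UMIs and Prdm1 at 27 and 9. Most measured genes of the immature-stage list were also lower in both sets, so lower levels were not particular to mature-stage genes. Genes listed with type 1 innate lymphoid cells were higher in 10 of 12 measured cases in both sets, where 50.9% and 50.2% of all genes were. Their medians were 0.30 and 0.54, and 6 and 7 of them had an interval above 0, against 16.7% and 9.92% of all genes. Il7r stood at 402 CPM in cKO and 281 CPM in WT cells, 0.52 (0.28 to 0.75), and 0.79 (0.55 to 1.04) without the large barcodes. Tmem176b stood at 231 and 179 CPM, 0.36 and 0.69 (0.36 to 1.04), and the brain-type creatine kinase Ckb at 87.2 and 58.5 CPM, 0.57 and 0.85 (0.32 to 1.42). The death ligand gene Tnfsf10 was lower in both sets, −0.46 and −0.16. The other lower gene was Rgs1 over all members, at −0.11, and Itga1 without the large ones, at −0.02. None of the 12 reached 2-fold in either set.

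After thinning, Il7r was in 53.9% of cKO members (46.0 to 61.7%) and 33.3% of WT members (24.3 to 43.4%). Without the Cd3 step it was in 44.3% and 20.7%. It was also more often found in cKO barcodes of the other gates, at 24.1% and 12.3% of receptor and Cd3 barcodes, 48.0% and 25.8% of T-gated and 88.5% and 70.7% of ILC2-gated barcodes. Cd27, the marker of the less mature stage, was in 15.2% of cKO (10.1 to 21.5%) and 21.6% of WT members (14 to 30.8%), and Itgam in 0.606% (0.0153 to 3.33%) and 2.94% (0.611 to 8.36%). Klrg1 was found in 0 of 165 cKO and 1 of 102 WT thinned members. The immature-stage list had a median of −0.48 over 13 genes and −0.21 over 11 without the large barcodes.

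Most adhesion and homing genes were lower. Of 15 measured 12 were lower (median log2 ratio −0.58), and 11 of 14 with a median of −0.38 without the large barcodes, where 7 had an interval below 0. Of all genes 49.1% and 49.8% were lower in these sets, and 11.2% had an interval below 0 in the second. The integrin subunits Itga4, Itgal and Itga2 stood at −0.80 (−1.03 to −0.58), −0.63 (−0.88 to −0.39) and −0.68 (−1.06 to −0.31) without the large barcodes.

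**Figure D5:**
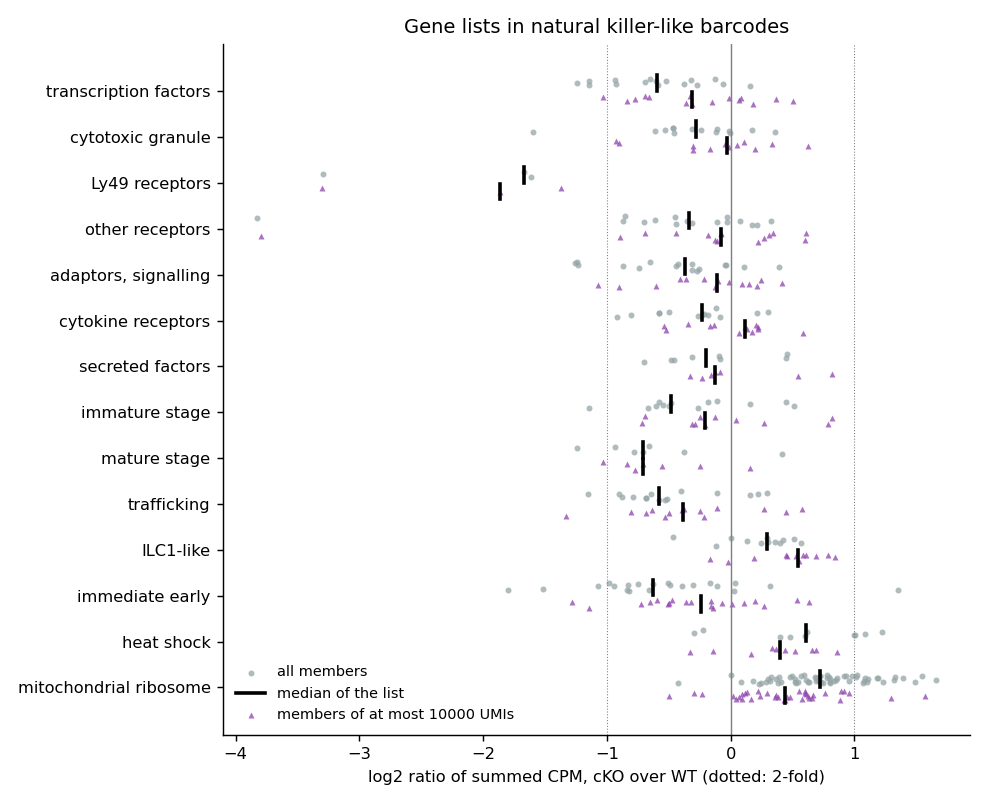
Log2 ratio of summed CPM in natural killer-like cells, cKO over WT, for the measured genes of 14 lists, over all members (circles) and over members of at most 10000 UMIs (triangles), with list medians as bars. The mature-stage medians are −0.71 in both sets, the type 1 innate lymphoid medians 0.30 and 0.54, and the cytokine receptor median changes sign, −0.23 and 0.12.

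For the counts that follow, 49.1% of all genes were lower and 50.9% higher over all members, and 49.8% and 50.2% without the large barcodes. Of 21 measured immediate early genes, which respond within minutes to stimulation, 17 were lower in cKO cells, median log2 ratio −0.62, and 14 of 20 without the large barcodes, median −0.24. Nr4a1, induced by antigen receptor signals, stood at 31.5 and 110.5 CPM (−1.80; −1.14, −1.82 to −0.50, without the large barcodes) and Atf3 at 30.7 and 88.4 CPM (−1.52; −1.29). Ier3 and Dusp2 were higher, at 1.36 (0.47 to 2.44) and 0.32 (0.01 to 0.64), and 1 cKO barcode held 37.3% of the Ier3 UMIs. Of 15 NF-kB targets 13 were lower, median −0.53, and 9 of 13, median −0.24, without the large barcodes. Heat shock genes were higher in 8 of 10 cases in both sets, medians 0.61 and 0.40, led by Hsph1 at 92.0 and 39.0 CPM (1.22; 0.86, 0.11 to 1.71). Interferon response genes had medians of 0.09 and 0.17, with Isg15 at 75 UMIs in cKO and 11 UMIs in WT cells, 2.03 and 1.77 (0.72 to 3.15), where 1 barcode held 33.3% of the cKO UMIs. Genes of the interleukin-15 and survival list had medians of 0.02 and 0.19, with Pim1 at −0.97 and −0.85 and Bcl2 at −0.61 and −0.35.

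Short genes of translation and respiration were higher in cKO cells. Of 83 measured cytosolic ribosomal protein genes 81 were higher, median log2 ratio 0.39, of 63 mitochondrial ribosomal protein genes 62, median 0.72, and of 73 genes of oxidative phosphorylation 71, median 0.48. Without the large barcodes the medians were 0.21, 0.44 and 0.30. Rplp0, a protein of the ribosomal stalk, stood at 2417 and 1260 CPM (0.94, 0.84 to 1.05; 0.60). Over all measured genes the log2 ratio went with the span of the gene: its median was 0.36 for the 647 genes under 5 kb and −0.32 for the 559 genes of at least 150 kb. Without the large barcodes these medians were 0.22 and −0.20, and Spearman's rho over genes was −0.37 and −0.34 in the 2 sets, as a description over genes that share these libraries. The part of gene span in the list medians was not tested. The ribosomal lists hold genes with median spans of 3.29 kb and 7.1 kb, and the transcription factors 57.3 kb, while the mature-stage and type 1 innate lymphoid lists hold 3.81 kb and 18.5 kb.

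Among members of at most 10000 UMIs the ends of the ranking held no granulocyte gene. Among the lowest were Klra13-ps (−1.86), Airn (−1.52), Tmem163 (−1.43), Gramd4 (−1.38), Chd7 (−1.14), Rai1 (−1.11), Flna (−1.10), Mbnl3 (−1.09) and Cd247 (−1.07). Bax, a p53 target that drives apoptosis, was the highest, with 139 UMIs in 70 cKO cells and 34 UMIs in 25 WT cells over all members and a log2 ratio of 1.33, and 1.57 (0.90 to 2.33) in this set. It was followed by the histone and tubulin genes H1f4 (1.41), Tubb4b (1.38), H2ac8 (1.37) and H1f5 (1.23), then by Crem (1.21), Txnip (1.16), Myo3b (1.07), Cd74 (1.06) and Rnf187 (0.96). Of Cd74, an MHC class II partner of antigen-presenting cells, 1 cKO barcode held 31.5% of the UMIs over all members.

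Few members reached a fixed minimum of cell cycle UMIs, which deeper barcodes reach more readily. At least 5 UMIs of Mki67, Top2a, Cdk1, Ccnb2, Ube2c, Birc5, Cenpf and Tpx2 were held by 19 of 168 cKO and 10 of 103 WT members. Most of these were large barcodes: above 10000 UMIs, 11 of 14 cKO (78.6%) and 7 of 12 WT members (58.3%) reached the minimum. Among members of at most 10000 UMIs this was 8 of 154 cKO (5.19%, 2.27 to 9.98%) and 3 of 91 WT members (3.30%, 0.685 to 9.33%). The S phase and G2/M lists, at medians of 0.38 and 0.52 over all members, were at 0.13 and 0.30 there, and both had negative medians, −0.17 and −0.15, with Scrublet doublets removed.

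Nat10 itself was too low in these cells to read. It had 22 UMIs in 15 cKO cells and 23 UMIs in 17 WT cells, 17.8 CPM (exact Poisson interval 11.1 to 26.9) and 29.9 CPM (18.9 to 44.9). The intervals overlapped, and 3′ tags outside the deleted part would check nothing. Thumpd1, which encodes the adaptor of Nat10 on transfer RNA, had 51 and 34 UMIs, 41.2 CPM (30.7 to 54.1) and 44.2 CPM (30.6 to 61.8).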

How the data were processed

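Lineage-depleted marrow cells were sequenced with 10x Genomics 3′ chemistry, 1 library per genotype. The deposited count matrices hold whole UMI counts for 56748 genes, made by the authors with Cell Ranger 7.1.0 on build mm39, per the submitters' processing notes. The files list 13479 cKO and 15848 WT barcodes, of which 11239 and 12537 were kept. No source used here says how the authors treated doublets or free RNA, and free RNA adds UMIs of abundant genes to every barcode.

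Counts were summed over members and scaled to CPM. A gene was measured where the 2 libraries summed to 50 UMIs or more. The log2 ratio, cKO over WT, used 0.5 added to each sum, with exact conditional binomial intervals. Shares of cells with a UMI were taken after thinning each barcode to 2000 UMIs, which left out 3 cKO and 1 WT members. Erythroid-gated barcodes (Klf1 and Car2) gave a background share, which may understate free RNA in the smaller members. Scrublet in scanpy 1.11.5, with 8% doublets expected, marked 544 cKO and 592 WT kept barcodes, which were not removed in the values reported unless said. Intervals and floors (3 counts) cover counting error only, and UMIs of a library share its mice and its preparation.

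Named genes were the markers of the rule, the 15 leading genes over the rest, the 10 highest and 10 lowest ratios among genes with at least 100 UMIs and a mean of 20 CPM, members of the natural killer lists, and Nat10 with Thumpd1. A gene that this rule names is not reported here. Genes named from other lists were in part chosen after their values were seen. The members and the gene lists were chosen with earlier results of these data known. Kinase genes sharing the ribosomal prefix were dropped from that list after values were seen. Promoter sequences are RefSeq's, on GRCm38.p6, and the files' build was not mixed with it. Gene span is the annotated length on the reference, matched for 6334 of 6355 genes. The ratio and thinning steps were tested on simulated data. Python 3.11.15, numpy 2.4.6, scipy 1.17.1, pandas 2.3.3, matplotlib 3.10.9 and edgeR 4.0.16, for TMM scaling only, were used.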

Additional observations from a re-analysis of the deposited data

How the results depend on the processing

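With 1 library per genotype, no replicate could be left out. No paired analysis was possible because each genotype has 1 library and no replicate numbers. Of the results that answer a comparison, taken under each alternative, 41 stayed within counting error or within 1.5 times the count, and 16 moved. Of the values for single genes and lists, 425 stayed, 84 moved and 17 changed sign. Among the 84, Eomes in cKO members was at 9.02% when thinned to 4000 UMIs, against 2.42% at 2000, and at 8.61% with no Cd3 step. The share ratio of cKO over WT was 1.33 when the rule was applied to thinned counts and 1.07 with no Cd3 step. Cd27 had a UMI in 27.8% of cKO and 33.3% of WT members when thinned to 4000 UMIs and in 38.7% and 48.5% with no thinning, and Klrg1 in 0% of WT members at 4000. Genes over 2-fold higher in cKO cells numbered 2253 with no minimum, 115 with at least 100 UMIs, 173 with every cell weighed alike, 93 without Scrublet doublets and 73 in members of at most 10000 UMIs. Genes over 2-fold lower numbered 2261 with no minimum, 55 with at least 100 UMIs, 46 without Scrublet doublets and 50 in members of at most 10000 UMIs. Signs turned for the cytokine receptor median, at 0.0315 with every cell weighed alike, 0.0275 without Scrublet doublets and 0.12 at most 10000 UMIs, and for Klrd1, at 0.0341, 0.0920 and 0.0875. The erythroid and G2/M medians were −0.15 and −0.15 without Scrublet doublets, and the S phase median −0.0595 with every cell weighed alike and −0.17 without Scrublet doublets. With Nkg7 required, Ngp, Ltf and S100a8 had log2 ratios of −2.24, −0.65 and −1.55. At most 10000 UMIs, Ltf, Lcn2, S100a8 and Mecom had −0.44, −2.03, −1.40 and −2.03, on few or no UMIs. For the other results the cause was not tested. Depth limits Klrg1, Itgam, S1pr5 and Nat10, which had few UMIs in either library.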
